A study of Homo sapiens with 15 samples.

Results

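The 10 genes described here are the non-HLA part of the machinery that prepares peptides for display on MHC class I, measured as RNA in MDA-MB-468 cells, an established human breast cancer line with high levels of the epidermal growth factor receptor (EGFR). They were listed by gene symbol, with earlier results of these data known, and all 10 were found among the 61552 genes of the counts table. B2M encodes the class I light chain, TAP1 and TAP2 the peptide transporter, and TAPBP (tapasin) the chaperone that joins that transporter to empty class I molecules. PSMB8, PSMB9 and PSMB10 encode the catalytic subunits of the immunoproteasome, ERAP1 and ERAP2 the aminopeptidases that trim peptides in the endoplasmic reticulum, and NLRC5 a transactivator of class I genes.

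Class I molecules carry short peptides from the cell's own proteins to its surface, where T cells read the peptide and NK cells read the class I molecule itself through inhibitory receptors. The immunoproteasome cuts proteins into peptides, the TAP transporter moves the peptides into the endoplasmic reticulum, the aminopeptidases shorten them, and a loading complex with tapasin, calreticulin and PDIA3 fits them into a heavy chain paired with B2M. Interferon is known to raise most of these genes through IRF1 and related factors, and NLRC5 acts at a shared promoter module of class I genes.

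The series asked how EGFR in the nucleus and the kinase activity of EGFR act on genes that concern NK cells. The polyadenylated RNA of 5 groups, all given EGF, was read in 15 libraries, 3 per group. In the drug experiment, serum was withheld from parental cells for 12 h, after which they received EGF at 10 ng/mL, with no drug (EGF), with cSNX1.3 at 10 μM (cSNX) or with erlotinib at 15 μM (ERL), for another 12 h. cSNX1.3 is a peptide made to keep EGFR from binding Sorting Nexin 1 and so out of the nucleus, and erlotinib inhibits the EGFR tyrosine kinase. In the line experiment, endogenous EGFR was knocked down with a lentiviral shRNA and a GFP-tagged EGFR was introduced, either wildtype (shEGFR-WT) or mutated in its nuclear localization sequence (shEGFR-NLS). A library without EGF, with a control peptide or with an untargeted shRNA was not analysed here. Nothing in the labels says whether the replicates came from separate cultures, so p-values measure the spread between these libraries, which may be technical.

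Depth was 22915676 to 35900649 counts per library, and no pair of replicates differed by as little as sampling noise (chi-square per degree of freedom 2.69 to 24.5 over 15 pairs). DUSP6 and SPRY4, which follow ERK signalling, were at 12.8 ± 0.902 and 7.56 ± 1.38 CPM in EGF and at 0.416 ± 0.173 and 0.23 ± 0.14 CPM in ERL (mean ± SD, n = 3). EGFR, the targeted gene, was at 4733 ± 360.0 CPM in EGF, 6143 ± 372 CPM in cSNX, 4708 ± 246 CPM in ERL, 1340 ± 168 CPM in shEGFR-WT and 1727 ± 33.7 CPM in shEGFR-NLS, counts that cannot separate endogenous from introduced transcripts. All 6 epithelial markers were detected in every group, and their summed level was 15683 to 20755 CPM in EGF, 18485 to 23893 CPM in cSNX, 8818 to 10645 CPM in ERL, 18009 to 20718 CPM in shEGFR-WT and 11180 to 13791 CPM in shEGFR-NLS. The 5 leukocyte markers (PTPRC, CD3E, NKG7, LYZ, CD79A) summed to at most 0.575 CPM in any library, so RNA of leukocytes, which express class I processing genes strongly, was at or near 0. In a bulk library, fewer cells that express a gene and less RNA of it per cell cannot be told apart.

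The genes lie on 4 chromosomes (GRCh38, GENCODE 44). TAP2 (chr6:32821833-32838739), PSMB8 (chr6:32840717-32844679), PSMB9 (chr6:32844136-32859851) and TAP1 (chr6:32845209-32853816) lie together in the MHC region, with TAPBP nearby (chr6:33299694-33314284). TAP1 lies within the annotated span of PSMB9, and that span also overlaps PSMB8. B2M lies at chr15:44711358-44718851, NLRC5 and PSMB10 at chr16:56989485-57083531 and chr16:67934506-67936864, and ERAP1 and ERAP2 at chr5:96760810-96808100 and chr5:96875986-96919703.

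Promoter sequence is shown because an interferon-stimulated response element is a feature that most of these genes have in common. Interferon is known to raise most of them, so how often the element occurs here is not independent of their choice. RefSeq promoters on GRCh38.p14, 300 bases each with 250 before and 50 after an annotated start, were at hand for 9 of the 10 genes (13 windows). The letters GAAANNGAAA, searched on both strands, occurred in a window of 8 of these 9 genes, against 4.37% of the 27167 genes in the table and 3.57% of its 34943 windows. The 8 stretches of 30 bases that hold them are printed 5′ to 3′ on the strand of the gene, with the matching letters in capitals.
B2M, chr15:44711366-44711395 (+): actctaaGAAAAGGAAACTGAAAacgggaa
TAP1, chr6:32853816-32853845 (-): cggccgcTTTCGATTTCGCTTTCccctaaa
TAP2, chr6:32838778-32838807 (-): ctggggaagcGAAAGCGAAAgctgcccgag
TAPBP, chr6:33314076-33314105 (-): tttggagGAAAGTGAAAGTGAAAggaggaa
PSMB8, chr6:32844032-32844061 (-): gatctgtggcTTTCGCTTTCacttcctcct
PSMB10, chr16:67936852-67936881 (-): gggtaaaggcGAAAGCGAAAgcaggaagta
ERAP1, chr5:96807924-96807953 (-): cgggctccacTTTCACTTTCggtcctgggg
ERAP2, chr5:96876460-96876489 (+): tcttagaacaGAAAGTGAAAgcaaaagtaa
In B2M, TAP1 and TAPBP 2 overlapping matches ran together. The match began 144 bases before the start in B2M, 134 in TAP1, 58 in TAP2, 30 in ERAP2, 21 in PSMB10, 20 in TAPBP and 4 in PSMB8, and it lay just past the start in ERAP1. The single PSMB9 window (chr6:32853942-32854241) did not hold these letters. The TAP1 stretch printed above lies just before that window, inside the annotated span of PSMB9. In the wider list of the class I pathway read below, 6 of 29 genes with a window held them. CCAAT, also searched on both strands, occurred in windows of B2M, TAP1, PSMB9 and ERAP1 (4 of 9, against 39.8%). In the windows of these genes, no match of one motif overlapped a match of the other. A match describes the letters only and is not evidence that a factor binds there.

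Levels are given as CPM, counts scaled to a common library size, after TMM scaling over all 15 libraries. Between genes they are compared per kb of annotated exon. In EGF, B2M had the highest level at 209 ± 29.2 CPM per kb, followed by PSMB8 (35.8 ± 5.02), TAP1 (25.8 ± 3.40), TAPBP (20.9 ± 1.11), PSMB9 (12.5 ± 1.61), PSMB10 (11.4 ± 1.60), ERAP1 (5.84 ± 0.455) and TAP2 (5.57 ± 0.303). NLRC5 (0.968 ± 0.0922) and ERAP2 (0.303 ± 0.0581) were far below the others, and they rested on 295 to 324 and 43 to 62 counts per library. TAP1 and TAP2, which form a heterodimer as proteins, thus differed in level per kb in the same cells, and so did ERAP1 and ERAP2. The gap between TAP1 and TAP2 rests partly on their annotated exons, 4738 and 10357 bases. In CPM they were at 122 ± 16.1 and 57.6 ± 3.14 in EGF.

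**Figure D1:**
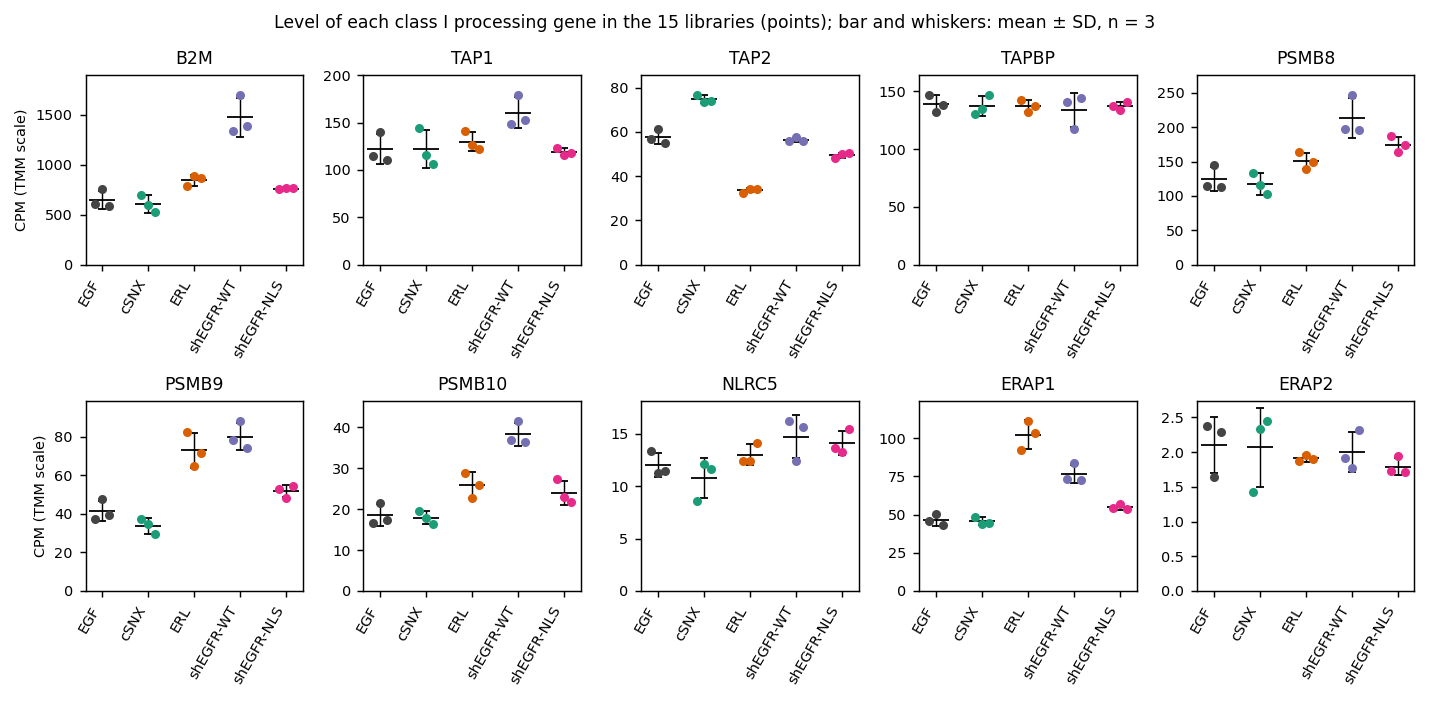
CPM (TMM scale, linear axes from 0) of the 10 genes in each library of the 5 groups, with the group mean and SD (n = 3 per group). shEGFR-WT is the highest group for B2M and PSMB10 (mean 1475 and 38.3 CPM), ERL is the highest for ERAP1 (102 CPM) and the lowest for TAP2 (33.6 CPM), and TAPBP, NLRC5 and ERAP2 overlap across neighbouring groups.

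With the EGFR kinase inhibited, the immunoproteasome, ERAP1 and B2M were higher and TAP2 was lower. In ERL vs. EGF, 6 of the 10 genes were called at a Benjamini-Hochberg adjusted p under 0.05 from edgeR's quasi-likelihood test, 5 higher and 1 lower, where 44.0% of the 15738 genes tested were called, 22.8% higher and 21.2% lower. The median log2 fold change of the 10 genes was 0.21 against 0.01 over all genes tested.

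ERAP1, the trimming peptidase of broad use, had the largest rise. It was at 45.5, 50.4 and 43.4 CPM in the EGF libraries and at 92.6, 111 and 104 CPM in the ERL libraries. The groups were well apart, and ERAP1 was 2.22-fold higher (log2 fold change 1.15, SE 0.0934, edgeR's adjusted p = 1.04e-07). ERAP2, its less abundant partner, was at 2.38, 1.64 and 2.29 CPM in EGF and at 1.87, 1.96 and 1.91 CPM in ERL. These ranges overlapped, and a log2 difference of -0.13 (95% interval -0.61 to 0.34) was not called at this depth.

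PSMB9, which replaces the standard subunit PSMB6 in the immunoproteasome, was at 37.6, 47.7 and 39.4 CPM in EGF and at 82.8, 64.7 and 71.9 CPM in ERL. Every ERL library was above every EGF library, a rise of 77.4% (log2 fold change 0.83, SE 0.115, edgeR's adjusted p = 3.1e-05). PSMB10, the counterpart of PSMB7, was at 16.7, 21.5 and 17.4 CPM in EGF and at 28.9, 22.6 and 25.9 CPM in ERL. The lowest ERL library was close to the highest EGF library, yet the rise was called (log2 fold change 0.49, SE 0.121, edgeR's adjusted p = 0.00383). PSMB8, the counterpart of PSMB5, was at 115, 145 and 114 CPM in EGF and at 163, 139 and 149 CPM in ERL. EGF replicate 2 lay inside the ERL range, and the call was near the threshold (log2 fold change 0.29, SE 0.110, edgeR's adjusted p = 0.0449). It was lost with DESeq2's size factors (0.0611), with DESeq2 as the test (0.0575), in a fit of all 15 libraries (0.0506), and without ERL replicate 1 (0.146), ERL replicate 3 (0.0946), EGF replicate 1 (0.167) or EGF replicate 3 (0.174).

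B2M, without which class I heavy chains do not reach the surface, was at 609, 756 and 589 CPM in EGF and at 784, 889 and 867 CPM in ERL. The groups did not overlap, and B2M was 31.1% higher (log2 fold change 0.39, SE 0.119, edgeR's adjusted p = 0.0141). The call was lost without ERL replicate 2 (adjusted p = 0.0582), EGF replicate 1 (0.0653) or EGF replicate 3 (0.0729).

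The transporter subunits parted. TAP2 was at 56.7, 61.2 and 55.1 CPM in EGF and at 32.5, 34.0 and 34.4 CPM in ERL. Both groups were tight and well apart, and TAP2 fell by 41.2% (log2 fold change -0.77, SE 0.0819, edgeR's adjusted p = 2e-06). TAP1 was at 115, 141 and 111 CPM in EGF and at 141, 127 and 122 CPM in ERL. These ranges overlapped, and its log2 difference of 0.10 was not called (95% interval -0.12 to 0.32).

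TAPBP was at 147, 132 and 138 CPM in EGF and at 143, 132 and 137 CPM in ERL, nearly the same range in both groups. Its log2 difference was -0.01 (95% interval -0.18 to 0.16). NLRC5 was at 13.3, 11.3 and 11.4 CPM in EGF and at 12.4, 12.4 and 14.1 CPM in ERL. The ranges overlapped, and the log2 difference of 0.12 was not called (edgeR's adjusted p = 0.494, or 0.0380 with a log2 difference of 0.30 when transcript length and GC content were offset).

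Under cSNX1.3 TAP2 was higher, and none of the other 9 genes was called. In cSNX vs. EGF, 1 of the 10 genes was called, where 6.07% of the genes tested were called, 3.38% higher and 2.69% lower. The median log2 fold change of the 10 genes was -0.03 against 0.00 over all genes tested.

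TAP2 was at 76.7, 73.5 and 74.0 CPM in the cSNX libraries. All 3 were above the EGF libraries, an increase of 29.9% (log2 fold change 0.38, SE 0.0806, edgeR's adjusted p = 0.00887). Without EGF replicate 1 or EGF replicate 3 the adjusted p was 0.0601 and 0.0641, so that no member was called. TAP2 was thus lower in ERL and higher in cSNX than in EGF, and in cSNX vs. ERL it was 2.21-fold higher (log2 fold change 1.14, edgeR's adjusted p = 1.11e-08).

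PSMB9 was at 37.2, 34.6 and 29.3 CPM in cSNX. These values lay just below the EGF range without touching it, and the log2 difference of -0.30 was not called (SE 0.117, edgeR's adjusted p = 0.157). PSMB8 was at 133, 116 and 102 CPM and PSMB10 at 19.5, 17.9 and 16.3 CPM, inside or around their EGF ranges. The 95% intervals of their log2 differences were -0.30 to 0.13 for PSMB8 and -0.29 to 0.19 for PSMB10.

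B2M was at 702, 596 and 528 CPM in cSNX and TAP1 at 144, 116 and 106 CPM. For both genes cSNX replicate 1 was the highest library and the range overlapped that of EGF, with log2 differences of -0.09 (95% interval -0.33 to 0.14) and 0.00 (-0.22 to 0.22). ERAP1 was at 48.6, 44.0 and 44.7 CPM in cSNX, within the spread of the EGF libraries, and its log2 difference was -0.02 (-0.20 to 0.17). TAPBP was at 131, 134 and 147 CPM (log2 difference -0.02, interval -0.18 to 0.15). NLRC5 was at 8.57, 12.1 and 11.6 CPM, where cSNX replicate 1, with 187 counts, was the lowest of all 15 libraries (log2 difference -0.15, interval -0.42 to 0.13). ERAP2 was at 1.42, 2.34 and 2.45 CPM (log2 difference -0.01, interval -0.49 to 0.46), too few counts to show a moderate change.

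Between the drugs, 6 of the 10 genes were called in cSNX vs. ERL, where 56.1% of the genes tested were called. TAP2 was higher in cSNX, and B2M (log2 fold change -0.48), PSMB8 (-0.37), PSMB9 (-1.13), PSMB10 (-0.54) and ERAP1 (-1.17) were lower, PSMB8 not without cSNX replicate 3 (edgeR's adjusted p = 0.0594). The drugs were given at different doses.

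**Figure D2:**
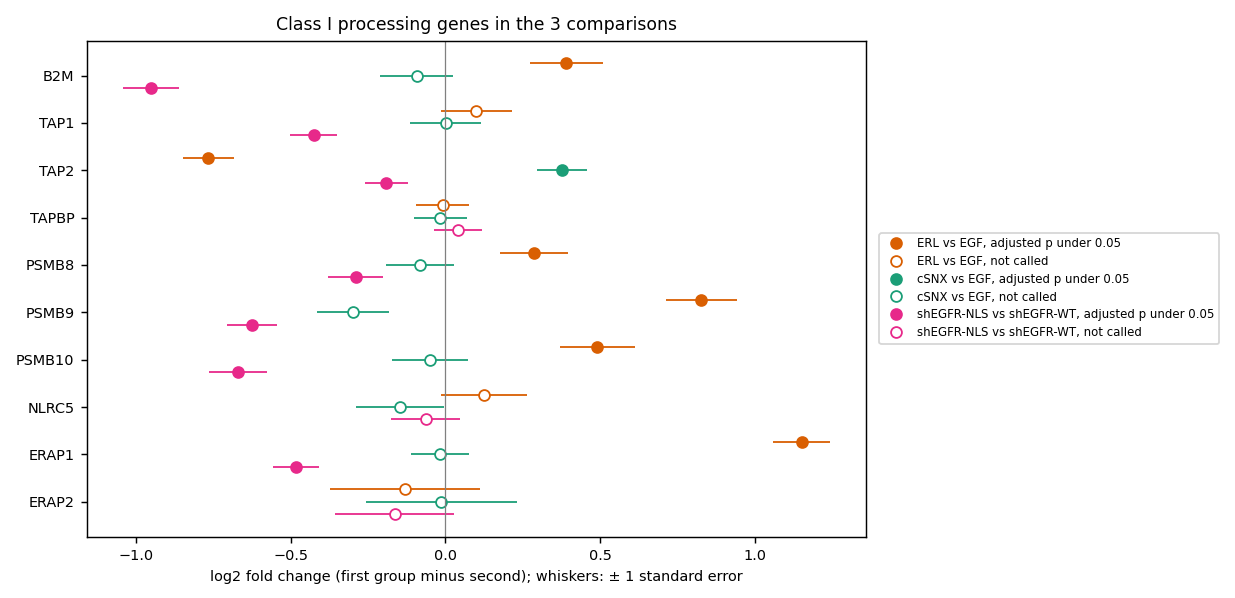
Log2 fold change of each gene in ERL vs. EGF, cSNX vs. EGF and shEGFR-NLS vs. shEGFR-WT with its standard error, filled where edgeR's adjusted p was under 0.05. In shEGFR-NLS vs. shEGFR-WT all 7 filled points lie below 0, in ERL vs. EGF 5 lie above and TAP2 below (-0.77), and in cSNX vs. EGF the filled point is TAP2 (0.38).

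In cells whose introduced EGFR lacked a working nuclear localization sequence, the light chain, both transporter subunits, all 3 immunoproteasome subunits and ERAP1 were lower than in cells with wildtype EGFR. In shEGFR-NLS vs. shEGFR-WT, 7 of the 10 genes were called and all 7 were lower, where 41.4% of the 15805 genes tested were called, 20.4% higher and 21.0% lower. The median log2 fold change of the 10 genes was -0.36 against 0.01 over all genes tested. The lines differ in the mutation and also in their transfection and culture, which cannot be told apart here.

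B2M was at 1337, 1700 and 1388 CPM in shEGFR-WT and at 757, 764 and 763 CPM in shEGFR-NLS. The mutant libraries were almost equal and all far below the wildtype ones, and B2M fell by 0.95 on the log2 scale (SE 0.0905, edgeR's adjusted p = 4.04e-07).

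TAP1 was at 149, 179 and 153 CPM in shEGFR-WT and at 124, 116 and 118 CPM in shEGFR-NLS. The groups did not overlap, and TAP1 fell by 0.43 on the log2 scale (edgeR's adjusted p = 3.41e-04). TAP2 was at 55.7, 57.6 and 55.9 CPM in shEGFR-WT and at 48.0, 49.9 and 50.3 CPM in shEGFR-NLS. These groups did not overlap either, but the fall was small (log2 fold change -0.19, edgeR's adjusted p = 0.0354). The TAP2 call was lost with no filter on low counts (0.0652), with the replicate number as a block (0.0599) and in 5 of 6 fits without 1 library, with an adjusted p of up to 0.0890.

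PSMB9 was at 78.2, 88.2 and 74.3 CPM in shEGFR-WT and at 53.1, 48.6 and 54.4 CPM in shEGFR-NLS, a fall of 0.63 on the log2 scale with no overlap (edgeR's adjusted p = 1.07e-05). PSMB10 was at 36.9, 41.5 and 36.5 CPM in shEGFR-WT and at 27.3, 22.9 and 21.8 CPM in shEGFR-NLS, again with no overlap (log2 fold change -0.67, edgeR's adjusted p = 2.9e-05). PSMB8 was at 198, 247 and 196 CPM in shEGFR-WT and at 187, 164 and 174 CPM in shEGFR-NLS. Its groups were close, with a log2 fold change of -0.29 (edgeR's adjusted p = 0.0148). The PSMB8 call was lost in a fit of all 15 libraries (0.0511) and without shEGFR-NLS replicate 2 (0.0729) or replicate 3 (0.0589).

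ERAP1 was at 73.6, 83.5 and 72.9 CPM in shEGFR-WT and at 54.3, 56.7 and 53.6 CPM in shEGFR-NLS. All 3 mutant libraries were below the wildtype ones (log2 fold change -0.48, edgeR's adjusted p = 8.31e-05). ERAP2 was at 1.92, 1.77 and 2.32 CPM in shEGFR-WT and at 1.73, 1.94 and 1.71 CPM in shEGFR-NLS, which overlapped (log2 difference -0.16, edgeR's adjusted p = 0.526).

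TAPBP was at 141, 117 and 144 CPM in shEGFR-WT and at 138, 134 and 141 CPM in shEGFR-NLS. The mutant range lay inside the wildtype one, with a log2 difference of 0.04 (edgeR's adjusted p = 0.719). NLRC5 was at 16.2, 12.4 and 15.6 CPM in shEGFR-WT and at 13.6, 13.2 and 15.4 CPM in shEGFR-NLS, also with overlap (log2 difference -0.06, edgeR's adjusted p = 0.678).

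The effect of the mutation was compared with that of each drug by testing the difference of the log2 fold changes in a fit of all 15 libraries. Against the cSNX effect, 4 of the 10 genes were called, where 23.1% of 16524 genes were called. The difference was -0.86 for B2M (edgeR's adjusted p = 5.36e-04), -0.56 for TAP2 (2.02e-04), -0.62 for PSMB10 (0.0088) and -0.46 for ERAP1 (0.00798). TAP1 was not called (-0.42, adjusted p = 0.0522), but it was in each of the 6 alternative fits with all libraries (edgeR's or DESeq2's adjusted p = 0.0093 to 0.0492) and in 3 of 12 without 1 library. Against the ERL effect, 7 of the 10 were called, where 44.7% were called. Here B2M (-1.33), TAP1 (-0.52), PSMB8 (-0.57), PSMB9 (-1.44), PSMB10 (-1.15) and ERAP1 (-1.62) were lower, and TAP2 (0.59) was the exception.

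The lines were also set against parental cells given EGF. Knockdown, the introduced EGFR, selection and culture change together in this comparison and cannot be told apart, and both lines are compared with the same EGF libraries. In shEGFR-WT vs. EGF, 7 of the 10 genes were called, all higher, where 50.7% of 16082 genes were called, 25.2% higher and 25.5% lower. In shEGFR-NLS vs. EGF, 5 were called, 4 higher and 1 lower, where 41.2% were called, 20.5% higher and 20.7% lower.

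B2M was 2.26-fold higher in shEGFR-WT than in EGF (log2 fold change 1.18, edgeR's adjusted p = 3.2e-07). In shEGFR-NLS its libraries lay just above the highest EGF library, with a log2 difference of 0.22 that was not called (edgeR's adjusted p = 0.113) but was in 4 of 14 other fits. PSMB10 was 2.06-fold higher in shEGFR-WT (log2 fold change 1.04) and 1.29-fold higher in shEGFR-NLS (0.37). PSMB9 was 1.93-fold higher in shEGFR-WT (0.95) and 1.25-fold higher in shEGFR-NLS (0.32), and PSMB8 was 1.71-fold higher (0.77) and 1.4-fold higher (0.48). ERAP1 was 1.65-fold higher in shEGFR-WT (0.72) and 1.18-fold higher in shEGFR-NLS (0.24). For these 4 genes the mutant line thus stood between parental cells and the wildtype line, with all 3 ranges apart. The shEGFR-NLS calls of PSMB9, PSMB10 and ERAP1 were each lost without EGF replicate 1 (edgeR's adjusted p = 0.0738, 0.0679 and 0.0798), without EGF replicate 3 (0.0549, 0.0544 and 0.110) and without 1 shEGFR-NLS library (replicate 3, 0.0572, replicate 1, 0.0769, and replicate 2, 0.0830).

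The transporter subunits again differed. TAP1 was higher in shEGFR-WT (log2 fold change 0.39, edgeR's adjusted p = 0.00242) and not called in shEGFR-NLS (-0.04, 95% interval -0.22 to 0.15). TAP2 was not called in shEGFR-WT (-0.03, interval -0.17 to 0.10) and was lower in shEGFR-NLS (log2 fold change -0.23, edgeR's adjusted p = 0.0145), a call lost with no filter on low counts (0.0799) and without EGF replicate 2 (0.0581). NLRC5 was called in shEGFR-WT near the threshold and with overlapping groups (log2 fold change 0.29, edgeR's adjusted p = 0.0473), and in 6 of 14 other fits it was not. TAPBP was not called in shEGFR-WT (-0.06) or shEGFR-NLS (-0.02), and neither was ERAP2 (-0.07 and -0.23).

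**Figure D3:**
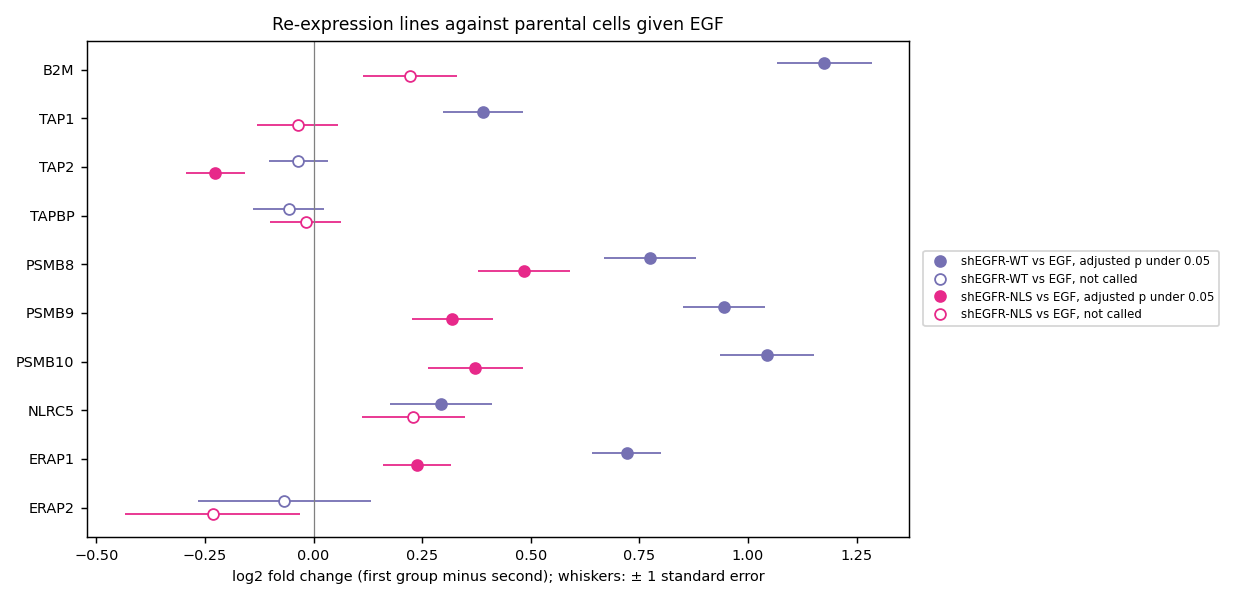
Log2 fold change of each gene in shEGFR-WT and shEGFR-NLS against the shared EGF libraries with its standard error, filled where edgeR's adjusted p was under 0.05. B2M, PSMB8, PSMB9, PSMB10 and ERAP1 lie further from 0 in shEGFR-WT (0.72 to 1.18) than in shEGFR-NLS (0.22 to 0.48), and TAPBP and ERAP2 have open points only.

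Ordered by group mean, B2M ran from shEGFR-WT through ERL, shEGFR-NLS and EGF to cSNX, and of the neighbours in that order only EGF and cSNX overlapped. ERAP1 ran from ERL through shEGFR-WT, shEGFR-NLS and EGF to cSNX, again with overlap between EGF and cSNX only. PSMB9 ran from shEGFR-WT through ERL, shEGFR-NLS and EGF to cSNX, with overlap between shEGFR-WT and ERL only. PSMB10 had the same order, with overlap between ERL and shEGFR-NLS and between EGF and cSNX. PSMB8 ran from shEGFR-WT through shEGFR-NLS, ERL and EGF to cSNX, where ERL, EGF and cSNX overlapped as neighbours. TAP1 was highest in shEGFR-WT, and all later neighbours overlapped. TAP2 had an order of its own, from cSNX through EGF, shEGFR-WT and shEGFR-NLS to ERL, with overlap between EGF and shEGFR-WT only. For TAPBP, NLRC5 and ERAP2 every pair of neighbours overlapped.

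Over the 15 libraries, the log2 CPM of B2M followed that of PSMB10 (Pearson r 0.94), PSMB8 (0.88), TAP1 (0.86) and PSMB9 (0.85), whereas TAP2 did not follow B2M (-0.20) or TAP1 (-0.02) and ran against PSMB9 (-0.65). These values describe libraries that share groups and depth and carry no test. Among 10814 genes averaging 5 CPM or more, the 5 whose pattern was most like that of TAP1 were CHMP2A (r 0.96), CYBA (0.95), CAPNS1 (0.95), BAG1 (0.94) and DPY30 (0.93). The 5 most like NLRC5 were WDR31 (0.89), ADAR (0.89), INKA2 (0.89), CMYA5 (0.89) and SPECC1 (0.87).

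The rest of the class I pathway was read from a wider list of 38 genes in 5 roles, of which 37 were tested and IRF9 was too low. In ERL vs. EGF 19 were called, 9 higher and 10 lower, beside 44.0% of all genes tested, with a median log2 fold change of 0.05. In cSNX vs. EGF 1 was called, lower, beside 6.07%, with a median of -0.02. In shEGFR-NLS vs. shEGFR-WT 23 were called, 4 higher and 19 lower, beside 41.4%, of which 20.4% higher and 21.0% lower, with a median of -0.22. The counts by role that follow are of called genes and are read against these same shares. The roles with 0 calls by edgeR in cSNX vs. EGF had 0 by DESeq2 too, and CALR, UGGT1 (2 of 5 loading partners) and NPEPPS (1 of 6 peptidases) had an unadjusted p under 0.05 there.

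The class I heavy chains, the partners of B2M, fell with it in the mutant line, where all 6 were called lower (21.0% of all genes). HLA-F changed by -1.04 on the log2 scale and HLA-B by -0.99 (edgeR's adjusted p = 3.4e-07 and 3.01e-07). In ERL vs. EGF all 6 had a log2 difference above 0 (median 0.31, beside 0.01 over all genes), and 2 were called higher (22.8% of all genes), HLA-F (0.51) among them and HLA-B (0.21) not, and in cSNX vs. EGF none was called, with log2 differences of -0.08 for HLA-F and -0.06 for HLA-B. HLA genes share near-identical sequence, so reads could be divided among them or left out, and their single values are uncertain.

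In ERL the standard catalytic subunits PSMB5, PSMB6 and PSMB7 moved against their immunoproteasome counterparts. Of 7 genes for the standard catalytic subunits, a maturation factor and activators, 6 were called lower in ERL vs. EGF (21.2% of all genes), with PSMB7 at -0.49, the maturation factor POMP at -0.48 and the activator subunit PSME3 at -0.44 on the log2 scale (edgeR's adjusted p = 0.00153, 0.0044 and 0.00172). The exception was the activator subunit PSME1, at 126 ± 12.4 CPM in EGF and 146 ± 6.34 CPM in ERL. All 3 immunoproteasome subunits were higher in the same libraries. Of the 7, 3 were called lower in shEGFR-NLS vs. shEGFR-WT, POMP (-0.30) among them, with PSMB7 (-0.12) and PSME3 (-0.12) not called, and in cSNX vs. EGF none was called.

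Of the 5 other loading and quality control partners, 1 was called higher and 2 lower in ERL vs. EGF. TAPBPL, a relative of tapasin that edits peptides, was higher (0.44, edgeR's adjusted p = 0.0305), and the chaperone CALR (-0.62, adjusted p = 1.96e-04) and the oxidoreductase PDIA3 (-0.27, adjusted p = 0.0424) were lower, while TAPBP itself was not called. In shEGFR-NLS vs. shEGFR-WT 4 of the 5 were called lower, including TAPBPL (-0.44), PDIA3 (-0.43) and CALR (-0.25), and in cSNX vs. EGF none was called.

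Of the 6 other peptidases, which trim or destroy peptides outside the endoplasmic reticulum for the most part, 2 were called lower in ERL vs. EGF, THOP1 (-0.67, edgeR's adjusted p = 1.24e-04) among them. In shEGFR-NLS vs. shEGFR-WT 2 were called higher, BLMH (0.53) and THOP1 (0.33), and 3 lower, including NPEPPS (-0.56). None was called in cSNX vs. EGF, and ERAP1 had a larger log2 fold change in ERL than any of them.

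Of 14 transcription regulators of the pathway, 13 were tested. In ERL vs. EGF 6 were called, all higher (22.8% of all genes), and by direction alone 10 of the 13 were above 0 and 3 below. The mutant line had 2 called higher and 3 lower against shEGFR-WT. IRF1, the interferon regulatory factor that binds the element shown above, was at 30.7 to 35.7 CPM in EGF, 29.2 to 32.8 in cSNX, 50.2 to 53.1 in ERL, 53.6 to 54.1 in shEGFR-WT and 32.2 to 35.9 in shEGFR-NLS. IRF1 was thus high in the same groups as PSMB9. The PSMB9 window did not hold that element, but the TAP1 match lay just outside that window. The log2 fold change of IRF1 was 0.67 in ERL vs. EGF (edgeR's adjusted p = 2.18e-05) and -0.67 in shEGFR-NLS vs. shEGFR-WT (1.84e-06). Of the genes whose windows held the element, B2M, PSMB8, PSMB10 and ERAP1 were higher in ERL. TAP2 was lower there, and TAP1, TAPBP and ERAP2 were not called. Whether IRF1 bears on any of these genes was not tested. NFYB, a subunit of the factor that binds CCAAT, was higher in ERL (0.75) and was the 1 regulator called in cSNX vs. EGF (-0.60, edgeR's adjusted p = 0.00318), and it was not called in shEGFR-NLS vs. shEGFR-WT (-0.04). CIITA, a relative of NLRC5 that acts mainly on class II genes, was higher in ERL (1.96, edgeR's adjusted p = 0.00768). It had 6 to 12 counts per EGF library, 0 to 12 per cSNX library and 27 to 52 per ERL library. CIITA thus passed the filter on low counts through the ERL libraries where it was high, and its call, among the 6 above, carries that limit. It was not called in shEGFR-NLS vs. shEGFR-WT (-0.49).

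**Figure D4:**
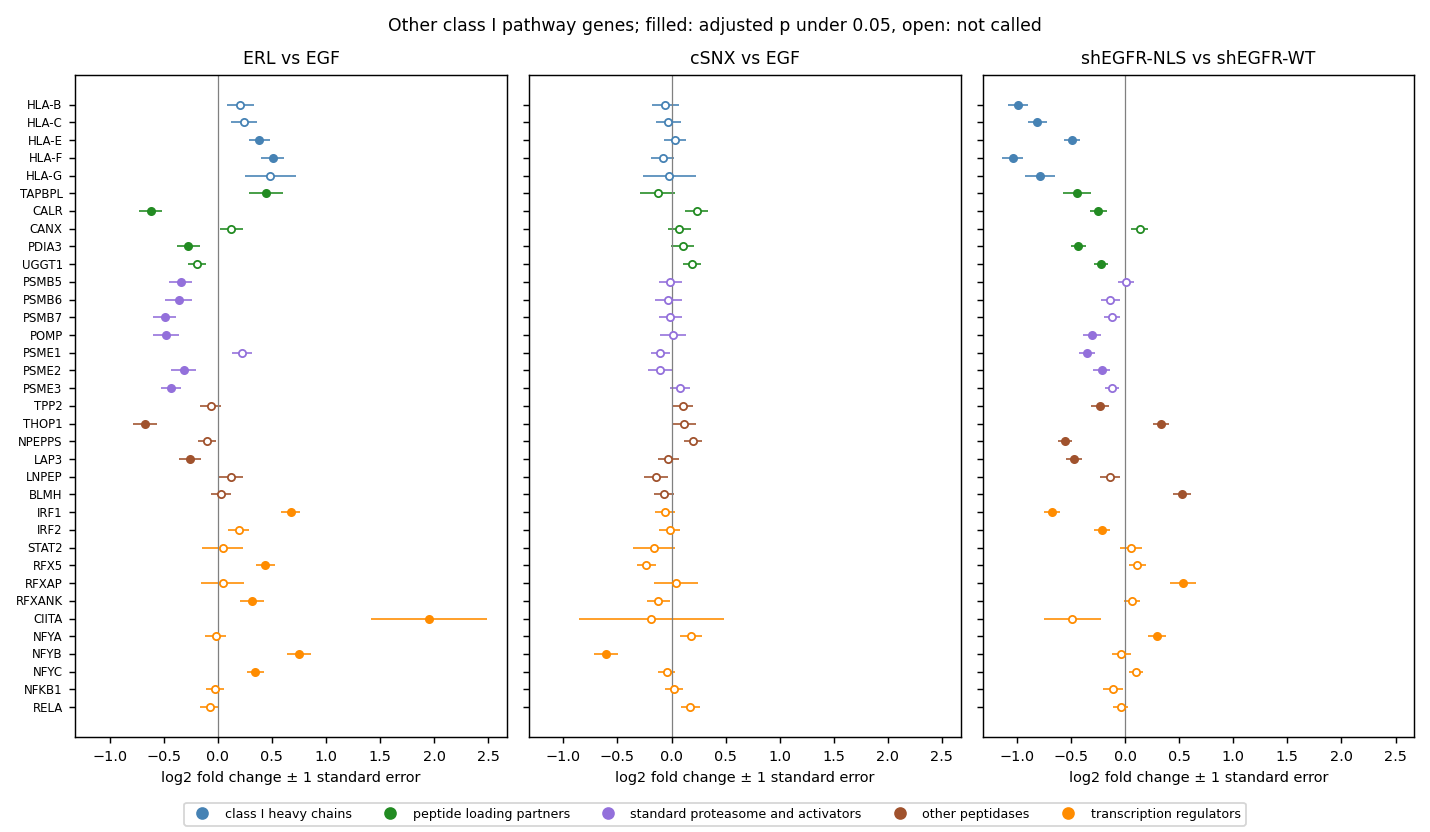
Log2 fold change with its standard error of tested genes of the wider list, coloured by role, in the 3 comparisons, filled where edgeR's adjusted p was under 0.05. All heavy chains drawn are filled and below 0 in shEGFR-NLS vs. shEGFR-WT (-1.04 to -0.49). In ERL vs. EGF 6 of 7 genes for the standard proteasome, its maturation factor and activators are filled and below 0. NFYB is the only filled point in cSNX vs. EGF.

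Some measured properties of the libraries moved with these values, and their part in the results was not tested. The balance of the shortest against the longest genes, on the log2 scale relative to the average library, was highest within its group in ERL replicate 1 (0.205), EGF replicate 2 (0.152), shEGFR-NLS replicate 1 (0.116), shEGFR-WT replicate 2 (0.105) and cSNX replicate 1 (0.0827). These 5 libraries were also the highest of their groups for TAP1, PSMB8 and PSMB10, and all but shEGFR-NLS replicate 1 were for PSMB9. For B2M and ERAP1 this held in EGF, cSNX and shEGFR-WT, whereas ERL replicate 1 was the lowest of its group for both and shEGFR-NLS replicate 1 was the lowest for B2M. The balance of GC-rich against GC-poor genes was -0.26 to -0.19 in shEGFR-WT, -0.10 to 0.20 in shEGFR-NLS and -0.43 to 0.12 in ERL, and 0.10 to 0.13 in EGF and 0.16 to 0.30 in cSNX. With an offset for length and GC content, the 6, 1 and 7 genes called in ERL vs. EGF, cSNX vs. EGF and shEGFR-NLS vs. shEGFR-WT were called again, with NLRC5 added in ERL vs. EGF.

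Counting did not use strand, so reads where annotated exons overlap on opposite strands could not be assigned by strand. TAPBP shares 21.0% of its exonic bases with a noncoding RNA on the opposite strand, whose level is not given here. PSMB8 and PSMB9 share 139 bases on opposite strands. PSMB8-AS1, an antisense RNA, overlaps 17.3% of the exonic bases of PSMB8 and 14.2% of those of TAP1, and its level was 2.40 ± 0.393 CPM in EGF, 7.22 ± 0.842 CPM in ERL, 4.58 ± 0.289 CPM in shEGFR-WT and 5.50 ± 0.261 CPM in shEGFR-NLS, far below that of either gene. CAST overlaps 3.76% of the exonic bases of ERAP1. It was at 475 ± 14.4 CPM in EGF and 308 ± 36.2 CPM in ERL, the opposite direction to ERAP1. Between the lines CAST was at 636 ± 25.7 CPM in shEGFR-WT and 383 ± 9.16 CPM in shEGFR-NLS, the same direction as ERAP1. The part of CAST in the ERAP1 counts was not tested. PSMB10 shares 39.4% of its exonic bases with a further annotated gene on the same strand, and TAP2 shares 19.5% with another, so their counts could be incomplete. B2M, NLRC5 and ERAP2 share none.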

How the data were processed

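RNA-seq of MDA-MB-468 cells gave 15 libraries. The authors trimmed read pairs with TrimGalore, aligned them to GRCh38 with STAR and assigned them to genes with featureCounts, ignoring strand, and they deposited raw counts, not normalized. IDs were matched to GENCODE 44 (61399 of 61552). Totals ranged from 22915676 to 35900649.

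Here edgeR 4.0.16 (R 4.3.3) was run with TMM scaling, filterByExpr by group, a robust quasi-likelihood fit and Benjamini-Hochberg adjustment over all genes tested, at a threshold of 0.05. The drug comparisons used 9 libraries, shEGFR-NLS vs. shEGFR-WT 6, the lines vs. EGF 9, and differences of effects all 15. The fit was tested on simulated data. Standard errors come from the fit, and 95% intervals are their normal approximation. Log2 CPM used a prior count of 2. The members and lists were chosen with earlier results of these data known. Named are all members, up to 3 genes per role of the wider list by the largest change in the 3 main comparisons, and 5 genes most like TAP1 and NLRC5. A few such genes are left unreported. Replicate numbers do not pair the libraries by any label. Alternatives were DESeq2 1.42.0 (size factors or test), other filters, a replicate block, other sets of libraries, an adjusted p under 0.01, leaving out each replicate, and, chosen after seeing the data, an offset for length and GC content. Protein sequences were not used here.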

Additional observations from a re-analysis of the deposited data

Results flagged for a closer look

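The effect of the NLS mutation (shEGFR-NLS vs. shEGFR-WT) differed from that of a drug (vs. EGF) for the following members, by edgeR's test of the difference in a fit of all 15 libraries with 3 per group. Against cSNX the difference in log2 fold change was -0.86 for B2M, -0.56 for TAP2, -0.62 for PSMB10 and -0.46 for ERAP1. Against ERL it was -1.33 for B2M, -0.52 for TAP1, 0.59 for TAP2, -0.57 for PSMB8, -1.44 for PSMB9, -1.15 for PSMB10 and -1.62 for ERAP1. The drug and line experiments also differ in the cells and their culture, which cannot be told apart from the difference of treatment. Each of these 11 calls was made in all 18 other fits of that difference.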

How the results depend on the processing

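Over 976 alternative values of the fold changes reported, no called member changed direction, 40 values lost a call and 14 gained one, 9 of them TAP1 in the difference of the NLS and cSNX effects. Of 14 calls in the 3 main comparisons, 9 were kept in every fit. The others were B2M and PSMB8 in ERL vs. EGF, TAP2 in cSNX vs. EGF, and TAP2 and PSMB8 in shEGFR-NLS vs. shEGFR-WT, and the cause of each loss was not tested. The number of members called was 0 to 1 in cSNX vs. EGF (main 1) and 2 to 5 in shEGFR-NLS vs. EGF (main 5) when 1 library was left out, lowest without EGF replicate 1 or 3, and 1 in shEGFR-NLS vs. EGF at an adjusted p under 0.01. B2M in shEGFR-NLS vs. EGF was called with no filter (log2 0.25), with the replicate block (0.23), with only these 2 groups (0.25) and without EGF replicate 2 (0.35).

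Direction turned in 40 values, all of members near 0 that were not called. TAPBP in ERL vs. EGF was 0.0126 with at least 10 counts in every library and 0.136 with the length and GC offset, and TAPBP in shEGFR-NLS vs. shEGFR-WT was -0.0576 with that offset. TAP1 in cSNX vs. EGF was -0.0185 with no filter, -0.00395 with at least 10 counts, -0.00631 with the replicate block, -0.00309 in all 15 libraries and -0.00859 with only the 2 groups. With the offset ERAP1 and ERAP2 in cSNX vs. EGF were 0.00784 and 0.0136. Leaving out 1 library gave in cSNX vs. EGF -0.204 to 0.0140 for B2M, -0.133 to 0.101 for TAP1, -0.0706 to 0.0235 for TAPBP, -0.181 to 0.0253 for PSMB8, -0.119 to 0.0587 for PSMB10, -0.0585 to 0.0331 for ERAP1 and -0.173 to 0.19 for ERAP2. It gave -0.0598 to 0.0303 for TAPBP in ERL vs. EGF, and in shEGFR-NLS vs. shEGFR-WT -0.0463 to 0.0902 for TAPBP and -0.171 to 0.00467 for NLRC5. In shEGFR-WT vs. EGF TAPBP was 0.101 with the offset, and leaving out 1 library gave -0.0682 to 0.00816 for TAP2, -0.112 to 0.0451 for TAPBP and -0.220 to 0.0279 for ERAP2. In shEGFR-NLS vs. EGF TAP1 was 0.0114 with the offset, TAPBP was 0.00522 with no filter, 0.0102 with at least 10 counts, 0.0370 with the offset and 0.00499 with only the 2 groups, and leaving out 1 library gave -0.103 to 0.0833 for TAP1 and -0.0475 to 0.0201 for TAPBP.

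Genes called in cSNX vs. EGF (956) numbered 1678 with the offset, 1444 in all 15 libraries, 470 at an adjusted p under 0.01, and 526, 531 and 592 without cSNX replicate 2, EGF replicate 1 and EGF replicate 3. The difference of the NLS and cSNX effects had 3819, and 2359 at an adjusted p under 0.01. Replicate numbers did not pair the libraries: 8 of 30 same-numbered pairs had deviations correlated over 0.1 (range -0.20 to 0.33), and 7 of 15 libraries correlated best with their own number. With the replicate block 6 members were called in ERL vs. EGF, 1 in cSNX vs. EGF, 6 in shEGFR-NLS vs. shEGFR-WT (TAP2 at 0.0599), 7 in shEGFR-WT vs. EGF and 6 in shEGFR-NLS vs. EGF, out of 6707, 841, 5766, 8375 and 6871 genes. ERAP2, at 31 to 84 counts per library, and NLRC5, at 187 to 564, had the least depth.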
